A study of Chlamydomonas reinhardtii with 9 samples.

Results

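The genes described here are 9 genes of starch synthesis and branching in the single-celled green alga Chlamydomonas reinhardtii, out of 14621 genes in the deposited tables. They were chosen by their gene IDs, for the enzymes they encode, and cover ADP-glucose pyrophosphorylase (STA6 and STA1), starch synthases (STA2 and STA3), a branching enzyme (SBE2), an isoamylase (STA7), starch phosphorylases (STA4, which encodes PHOB, and PHOA) and a disproportionating enzyme (STA11). The symbols were assigned to the IDs when the genes were chosen. Neither the deposited tables nor the reference gene table pairs these IDs with symbols, so none of the 9 assignments was checked. This includes the number of the branching enzyme and the assignment of the phosphorylases.

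Polyadenylated RNA was sequenced from 3 libraries each of wild type, the mutant crpaf1-1 and the mutant crskip-1, all of strain CC5325. All cultures grew in liquid TAP, a medium that contains acetate, at 22 °C with 14 h of light and 10 h of darkness for 2 generations, and cells were taken late in G1. PAF1 belongs to a complex that accompanies RNA polymerase II during elongation, and SKIP is a spliceosomal protein that also acts in transcription. The labels name 1 allele per mutant and give neither the lesion nor a complemented line. They do not say that replicates came from separate cultures, and the p-values then reflect only the spread among libraries, part of which may be technical. The levels of the mutated genes were not analysed here.

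In Chlamydomonas, starch is made in the chloroplast, where it forms plates around the pyrenoid and granules in the stroma, and under day and night cycles it builds up in the light and is used in the dark. ADP-glucose pyrophosphorylase makes the sugar donor ADP-glucose, starch synthases extend the glucan chains, branching enzymes add branch points, and isoamylase trims misplaced branches so that the polymer can crystallise. Several of the genes carry the name STA because mutants in them were found by their altered starch. A cell without STA6 makes almost no starch, and a cell without STA7 makes a soluble, highly branched glucan in place of normal granules.

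Total counts ranged from 13907142 to 19725439 per library. All 9 genes passed the filter on low counts that left 13376 genes, with 303 to 21892 counts per gene and library. Expression is given as CPM, counts scaled to library size, with library sizes adjusted by TMM, which assumes that most genes do not change. The coefficient of variation between replicates, over the 27 combinations of gene and group, had a median of 2.29% and reached 8.01%. A gene is said to have risen or fallen where its adjusted p in edgeR's quasi-likelihood test was under 0.05. Scaling mattered for small differences. With library size alone the median over all genes, in log2, became 0.09 when crpaf1-1, and -0.12 when crskip-1, was set against wild type, and 0.20 for the mutants against each other. Higher genes, as a share of all called, then went from 48.9% to 60.3%, from 49.2% to 27.6% and from 47.7% to 76.7% in the same order. These values are relative to the RNA of the same library, and in bulk RNA fewer cells with a transcript and less of it per cell cannot be told apart.

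The genes are spread over 7 chromosomes, with STA6, STA7 and STA11 on chromosome 3 (coordinates as in the deposited gene set, named by the suffix of its IDs). STA6 (Cre03.g188250_4532.v6.1) lies at 5845263 to 5850473 of chromosome 3, plus strand, with 7 exon blocks, that is, exons merged where they overlap. STA1 (Cre13.g567950_4532.v6.1) lies at 920352 to 927225 of chromosome 13, plus strand, with 12 exon blocks. STA2 (Cre17.g721500_4532.v6.1), with 7 exon blocks, lies at 3215259 to 3220576 of chromosome 17, plus strand. STA3 (Cre06.g282000_4532.v6.1) has 19 exon blocks and the longest exonic sequence of the 9, 5999 bases, at 5032540 to 5044400 of chromosome 6, plus strand. SBE2 (Cre10.g444700_4532.v6.1), with 18 exon blocks, lies at 3488421 to 3496758 of chromosome 10, minus strand. STA7 (Cre03.g155001_4532.v6.1) has the most exon blocks, 23, at 1909577 to 1920706 of chromosome 3, plus strand. STA4 (Cre12.g552200_4532.v6.1), with 19 exon blocks, lies at 8129231 to 8139279 of chromosome 12, minus strand. PHOA (Cre07.g336950_4532.v6.1), with 18 exon blocks, lies at 3602748 to 3611251 of chromosome 7, minus strand. STA11 (Cre03.g181500_4532.v6.1) has the fewest exon blocks, 6, at 5194349 to 5198346 of chromosome 3, plus strand.

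Of the 9 genes, 0 overlapped a gene on the opposite strand. STA6 shared 174 of its 3183 exonic bases with a gene on its own strand, and STA11 shared 395 of its 2435. No source used here says how reads in shared bases were counted, so these 2 genes carry that uncertainty. The neighbour of STA6 held 447, 371 and 409 raw counts in wild type, 657, 667 and 586 in crpaf1-1 and 458, 458 and 414 in crskip-1. That of STA11 held 1852, 1416 and 1999 in wild type, 1835, 1723 and 1496 in crpaf1-1 and 1278, 1432 and 1146 in crskip-1. These counts are not scaled to library size.

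In wild type the 9 transcripts differed widely in level. Given per kilobase of exonic length, levels allow for gene length but not for reads missing over exon junctions or removed as duplicates. PHOA was the highest at 317 ± 25.4 CPM per kb and STA7 the lowest at 9.36 ± 0.165 CPM per kb (SD, n = 3 throughout), a ratio of 33.9. Between them came STA6 (238 ± 6.13 CPM per kb), STA1 (231 ± 5.31), STA4 (184 ± 12.1), STA2 (164 ± 2.19), SBE2 (86.6 ± 2.58), STA11 (71.2 ± 0.116) and STA3 (33.5 ± 0.604). STA6 and STA1, the subunits of 1 enzyme, overlapped between libraries, and every other pair of neighbours in this order was separate in all 3 libraries.

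Most of the set was abundant. In wild type 7 of the 9 genes exceeded over 92% of the genes tested in level per kb, from 92.3% for STA11 to 98.0% for PHOA. STA3 exceeded 85.8% and STA7 61.9%. The 9 genes together took 0.492 ± 0.0139% of wild-type counts, 0.422 ± 0.0123% in crpaf1-1 and 0.436 ± 0.00404% in crskip-1. These are shares of raw counts, without TMM. The sum of their TMM-scaled CPM gave another picture: wild type 4871 ± 186, crpaf1-1 3951 ± 155, crskip-1 4707 ± 29.7. On that scale crskip-1 overlapped wild type, and every crpaf1-1 library lay below both.

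**Figure D1:**
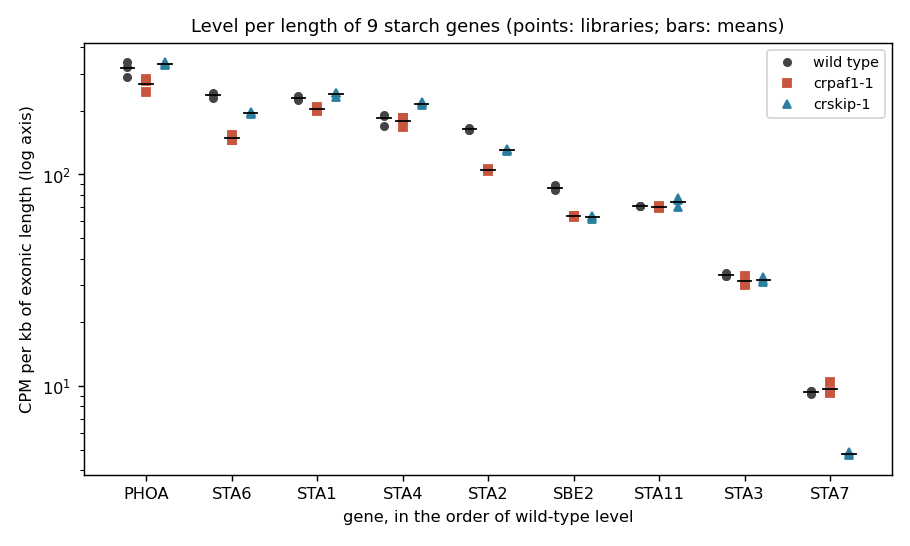
Level of each gene in CPM per kb of exonic length (log axis), with genes ordered by wild-type level, points for the 3 libraries of each group and bars for means. PHOA is highest and STA7 lowest in all 3 groups, and STA7 is at 4.78 CPM per kb in crskip-1 against 9.36 in wild type.

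The order changed in the mutants. In crpaf1-1, STA6 stood at 148 ± 5.48 CPM per kb, below STA1 (203 ± 5.11) and STA4 (179 ± 10.6), with no overlap between libraries. In crskip-1, STA6 stood at 196 ± 1.74 CPM per kb, below STA1 (240 ± 6.19) and STA4 (216 ± 3.91), again without overlap. In both mutants SBE2 (63.3 ± 0.552 CPM per kb in crpaf1-1 and 62.8 ± 0.925 in crskip-1) also stood below STA11 (69.9 ± 0.667 and 74.3 ± 3.62), which it exceeded in wild type. These are descriptions of order, without a test.

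The first question is which of these transcripts differ between crpaf1-1 and wild type. In crpaf1-1 against wild type, 5 of the 9 genes fell (STA6, STA2, SBE2, PHOA and STA1), 0 rose and 4 did not pass (STA3, STA7, STA4 and STA11). Over all genes tested, 58.4% were called, 29.8% of all genes being lower and 28.6% higher, so a call as such is common in this mutant. The median log2 fold change of the 9 genes was -0.19 (range -0.68 to 0.05), against 0.01 over all genes.

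The same question holds for crskip-1. In crskip-1 against wild type, 4 of the 9 genes fell (STA7, SBE2, STA2 and STA6), STA4 alone rose and 4 did not pass (STA1, STA3, PHOA and STA11). Over all genes 49.5% were called, 25.1% lower and 24.4% higher. The median log2 fold change of the 9 genes was -0.07 (range -0.97 to 0.23), against 0.00448 over all genes. Both comparisons use the same 3 wild-type libraries.

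Set directly against each other, the mutants differed in 6 of the 9 genes. STA6, STA1, STA2, STA4 and PHOA were lower in crpaf1-1 than in crskip-1, STA7 was higher, and STA3, SBE2 and STA11 did not pass. Over all genes 53.8% differed, 28.2% lower and 25.7% higher in crpaf1-1. With library size alone the split of the 9 genes became 2 lower and 4 higher, and STA1, STA4 and PHOA no longer passed (adjusted p = 0.48, 0.2 and 0.083, edgeR). Over all genes that setting called 61.7%, and 76.7% of those calls were higher in crpaf1-1, against 47.7% with TMM.

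**Figure D2:**
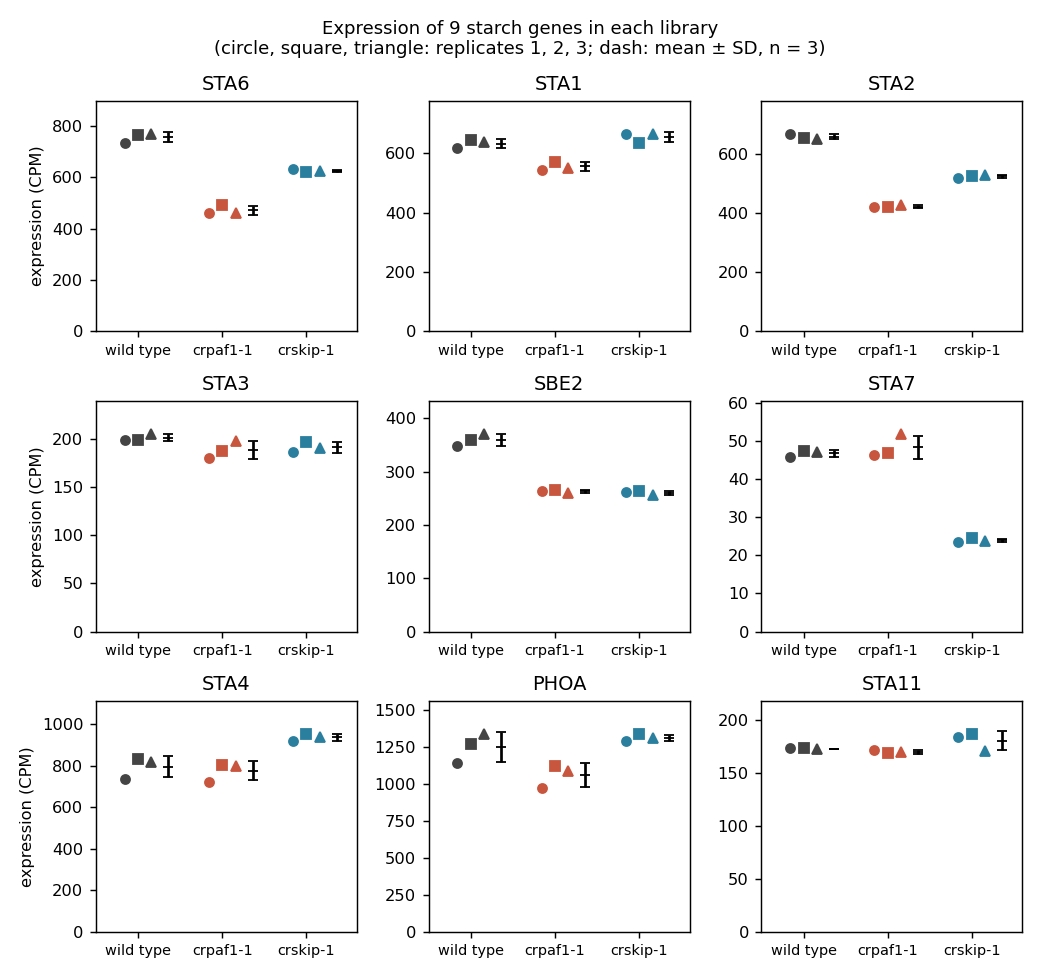
Expression in CPM of each gene in the 9 libraries, with circle, square and triangle for replicates 1, 2 and 3 and a dash for the mean ± SD (n = 3). STA6, STA2 and SBE2 are lower in both mutants than in every wild-type library, STA7 is lower in crskip-1, and STA3 and STA11 lie close together in all groups.

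STA6 encodes the small, catalytic subunit of ADP-glucose pyrophosphorylase, the step that commits carbon to starch. Its expression was 734, 766 and 769 CPM in the wild-type libraries, 460, 491 and 462 CPM in crpaf1-1 and 630, 619 and 625 CPM in crskip-1. All crpaf1-1 libraries lay below all crskip-1 libraries, and these below all wild-type libraries. STA6 fell by 37.8% in crpaf1-1 (log2 fold change -0.68, SE 0.04, 95% interval -0.77 to -0.60; adjusted p = 3.2e-10, edgeR), the lowest log2 fold change of the 9 genes there. In crskip-1 it fell by 17.5% (log2 -0.28, SE 0.04, interval -0.37 to -0.19; adjusted p = 2.8e-05, edgeR). The mutants differed by log2 -0.41 (SE 0.04; adjusted p = 3.2e-07, edgeR), with crpaf1-1 lower, and by -0.20 with library size alone.

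STA1 encodes the large, regulatory subunit of the same enzyme. STA1 measured 617, 645 and 637 CPM in the wild-type libraries, 545, 572 and 552 CPM in crpaf1-1 and 664, 636 and 666 CPM in crskip-1. The crpaf1-1 libraries were below all others, while crskip-1 and wild type overlapped. STA1 fell by 12.1% in crpaf1-1 (log2 -0.19, SE 0.04; adjusted p = 0.00088, edgeR), which became log2 -0.10 with library size alone. Its log2 fold change in crskip-1 was 0.05 (SE 0.04, interval -0.04 to 0.14; adjusted p = 0.32, edgeR). The mutants differed by log2 -0.24 (SE 0.04; adjusted p = 0.00011, edgeR), a difference of -0.03 with library size alone.

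Because both subunits were measured in each library, their ratio does not depend on how libraries are scaled. STA1 over STA6, in counts per kb, was 0.977, 0.979 and 0.963 in the wild-type libraries, 1.38, 1.35 and 1.39 in crpaf1-1 and 1.23, 1.20 and 1.24 in crskip-1. The 3 groups did not overlap, with a ratio near 1 in wild type and above 1 in both mutants. Reads missing over exon junctions or removed as duplicates can shift a ratio between genes. Its level is therefore not read as a balance of transcripts. Whether such losses differ between the groups was not tested, and a difference would also shift fold changes and changes in a ratio. The ratio was 1.41-fold higher in crpaf1-1 than in wild type and 1.26-fold higher in crskip-1, and 1.13-fold higher in crpaf1-1 than in crskip-1. With 3 libraries against 3, each exact two-sided permutation test gave p = 0.1, the smallest it can give. In all, 12 such comparisons of 4 ratios were made, and p was 0.1 for each, also after Benjamini-Hochberg adjustment. The groups did not overlap in any of the 12. Separation is common in these data: single genes did not overlap in 64.1% of cases between crpaf1-1 and wild type, in 56.4% between crskip-1 and wild type, and in 59.3% between the mutants. The share over other pairs of genes was not computed, and nothing particular to these ratios is read from their separation.

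STA2 encodes granule-bound starch synthase, which makes amylose inside the granule. It measured 667, 654 and 650 CPM in the wild-type libraries, 419, 419 and 426 CPM in crpaf1-1 and 519, 525 and 529 CPM in crskip-1. As with STA6, the groups were separate, with crpaf1-1 lowest and crskip-1 between. STA2 fell by 35.9% in crpaf1-1 (log2 -0.64, SE 0.04, interval -0.72 to -0.56; adjusted p = 2.6e-10, edgeR) and by 20.2% in crskip-1 (log2 -0.33, SE 0.04, interval -0.41 to -0.24; adjusted p = 1.9e-06, edgeR). Between the mutants the difference was log2 -0.32 (SE 0.04; adjusted p = 2.5e-06, edgeR), and -0.11 with library size alone.

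STA3, a soluble starch synthase that builds amylopectin, measured 199, 199 and 205 CPM in the wild-type libraries, 180, 187 and 198 CPM in crpaf1-1 and 186, 197 and 190 CPM in crskip-1. The mutants' libraries were all just below wild type, and the fitted differences did not pass. They were log2 -0.10 in crpaf1-1 (SE 0.05, interval -0.19 to 0.00; adjusted p = 0.092, edgeR) and -0.07 in crskip-1 (SE 0.05, interval -0.17 to 0.03; adjusted p = 0.2, edgeR). Without crpaf1-1 replicate 3 the first was -0.14 (adjusted p = 0.032, edgeR). With library size alone the first was -0.01 (adjusted p = 0.82, edgeR) and the second -0.20 (adjusted p = 0.0015, edgeR). The libraries gave a ratio of STA2 to STA3, per kb, of 5.02, 4.91 and 4.74 in wild type, 3.49, 3.36 and 3.22 in crpaf1-1 and 4.18, 3.99 and 4.16 in crskip-1. In counts per kb, STA2 thus exceeded STA3 in every library, by less in crpaf1-1 (0.686 of the wild-type ratio) and crskip-1 (0.841 of it).

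SBE2, a branching enzyme whose number was not checked, fell in both mutants. It measured 349, 359 and 371 CPM in the wild-type libraries, 264, 265 and 260 CPM in crpaf1-1 and 262, 264 and 257 CPM in crskip-1. Both mutants lay below every wild-type library and overlapped each other. SBE2 fell by 26.9% in crpaf1-1 (log2 -0.45, SE 0.04, interval -0.54 to -0.37; adjusted p = 5.5e-08, edgeR) and the gene fell by 27.5% in crskip-1 (log2 -0.46, SE 0.04, interval -0.55 to -0.38; adjusted p = 8.9e-08, edgeR). The difference between the mutants was log2 0.01 (SE 0.04, interval -0.08 to 0.10; adjusted p = 0.84, edgeR). It became 0.22 with library size alone (adjusted p = 0.00015, edgeR), so near equality of the mutants holds relative to TMM scaling.

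STA7, an isoamylase, had the largest change of the 9 genes. STA7 measured 45.8, 47.3 and 47.1 CPM in the wild-type libraries, 46.3, 46.8 and 51.8 CPM in crpaf1-1 and 23.5, 24.4 and 23.7 CPM in crskip-1. The crskip-1 libraries lay far below all others, while crpaf1-1 and wild type overlapped. STA7 fell by 48.8% in crskip-1 (log2 -0.97, SE 0.07, interval -1.11 to -0.83; adjusted p = 3.2e-09, edgeR), and 5.51% of all genes had a lower log2 fold change in that mutant. In crpaf1-1 its log2 fold change was 0.05 (SE 0.06, interval -0.08 to 0.17; adjusted p = 0.51, edgeR). The mutants differed by log2 1.01 (SE 0.06, interval 0.88 to 1.15; adjusted p = 9.8e-10, edgeR). Over the alternatives run, the log2 fold change in crskip-1 stayed between -1.09 and -0.95. With 303 to 365 counts per crskip-1 library, STA7 was also the gene of the 9 with the fewest counts. It has the most exon blocks, 23, and whether reads lost over exon junctions differ between the groups was not tested.

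Isoamylase and branching enzyme act on branch points in opposite directions. The ratio of STA7 to SBE2 transcripts lay on opposite sides of wild type in the mutants. It covers 1 gene of each kind and is not read as a balance of the enzymes' activities. STA7 over SBE2, per kb, was 0.109, 0.109 and 0.106 in wild type, 0.146, 0.147 and 0.165 in crpaf1-1 and 0.0746, 0.0769 and 0.0770 in crskip-1. All crpaf1-1 libraries were above and all crskip-1 libraries below wild type. The ratio was 1.41-fold that of wild type in crpaf1-1, where SBE2 fell and STA7 did not pass, and 0.705-fold in crskip-1, where both fell. Between the mutants it differed 2.00-fold (exact permutation p = 0.1 each, the smallest possible, n = 3).

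**Figure D3:**
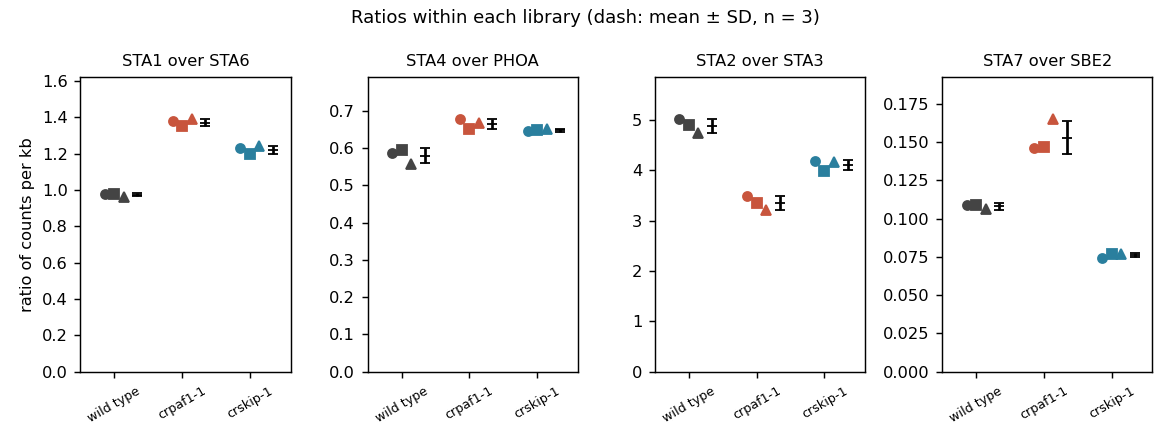
Ratios of counts per kb within each library for 4 pairs of genes, with circle, square and triangle for replicates 1, 2 and 3 and a dash for the mean ± SD (n = 3). STA1 over STA6 is near 1 in wild type (0.973) and higher in crpaf1-1 (1.37) and crskip-1 (1.22), and STA7 over SBE2 lies above wild type in crpaf1-1 and below it in crskip-1.

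PHOA and STA4 (PHOB) encode starch phosphorylases, enzymes that can lengthen or shorten glucan chains at their ends. PHOA measured 1139, 1270 and 1335 CPM in the wild-type libraries, 968, 1118 and 1089 CPM in crpaf1-1 and 1292, 1334 and 1306 CPM in crskip-1. The crpaf1-1 libraries were below all others, and crskip-1 overlapped wild type. PHOA fell by 15.2% in crpaf1-1 (log2 -0.24, SE 0.06, interval -0.36 to -0.12; adjusted p = 0.002, edgeR), which became log2 -0.15 with library size alone. In crskip-1 its log2 fold change was 0.07 (SE 0.06; adjusted p = 0.33, edgeR), and -0.05 with library size alone. The mutants differed by log2 -0.31 (SE 0.06; adjusted p = 0.00024, edgeR), with -0.10 under library size alone.

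STA4 measured 735, 831 and 819 CPM in the wild-type libraries, 722, 802 and 800 CPM in crpaf1-1 and 917, 951 and 937 CPM in crskip-1. All crskip-1 libraries stood above the others, and crpaf1-1 overlapped wild type. STA4 rose by log2 0.23 in crskip-1 (SE 0.05, interval 0.12 to 0.34; adjusted p = 0.0012, edgeR), a 1.18-fold change, and by 0.11 with library size alone (adjusted p = 0.041, edgeR). In crpaf1-1 its log2 fold change was -0.04 (SE 0.05, interval -0.15 to 0.07; adjusted p = 0.55, edgeR). The mutants differed by log2 -0.27 (SE 0.05; adjusted p = 0.00028, edgeR), and by -0.07 with library size alone.

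For both phosphorylases replicate 1 was the lowest library of each group, and replicate 1 was sequenced in lane 3 and the others in lane 2, per the file headers. In the lane 2 libraries alone, PHOA was at log2 -0.24 in crpaf1-1 (adjusted p = 0.00085, edgeR) and STA4 at 0.19 in crskip-1 (adjusted p = 0.0051, edgeR). Lane 3 held 1 library per group. For all 9 genes, lane 2 alone left each of the 27 calls on its side of the threshold. Per kb, the libraries gave an STA4 to PHOA ratio of 0.587, 0.595 and 0.558 in wild type, 0.678, 0.652 and 0.668 in crpaf1-1 and 0.645, 0.648 and 0.652 in crskip-1. PHOA exceeded STA4 in every library, and the STA4 to PHOA ratio was larger in both mutants, by 1.15-fold in crpaf1-1 and 1.12-fold in crskip-1.

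STA11, a disproportionating enzyme that transfers glucan segments between chains, stayed near its wild-type level. It measured 174, 174 and 173 CPM in the wild-type libraries, 172, 169 and 170 CPM in crpaf1-1 and 184, 187 and 171 CPM in crskip-1. The crpaf1-1 libraries were just below wild type, and crskip-1 overlapped both groups. The log2 fold change was -0.03 in crpaf1-1 (interval -0.12 to 0.07; adjusted p = 0.63, edgeR) and 0.06 in crskip-1 (interval -0.04 to 0.16; adjusted p = 0.28, edgeR). The mutants' difference of -0.09 (interval -0.18 to 0.01; adjusted p = 0.11, edgeR) became -0.13 without crskip-1 replicate 3 (adjusted p = 0.027, edgeR) and 0.12 with library size alone (adjusted p = 0.037, edgeR).

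**Figure D4:**
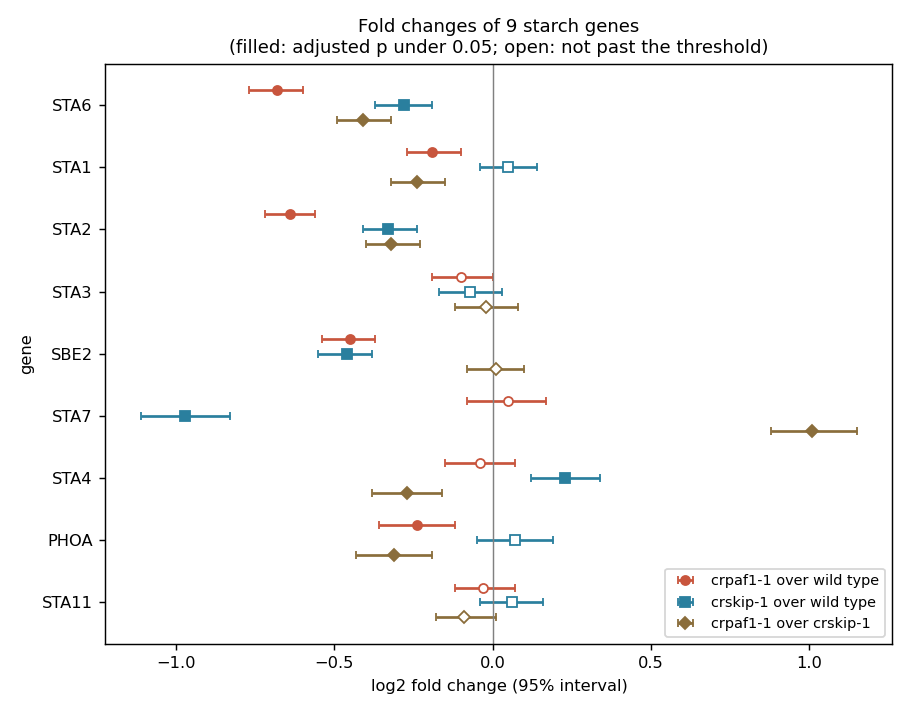
Log2 fold change of each gene with its 95% interval for crpaf1-1 over wild type, crskip-1 over wild type and crpaf1-1 over crskip-1; filled symbols passed the adjusted p threshold and open ones did not. SBE2 fell in both mutants (-0.45 and -0.46), STA6 and STA2 fell further in crpaf1-1 (-0.68 and -0.64) than in crskip-1 (-0.28 and -0.33), and STA7 fell in crskip-1 (-0.97).

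Set among all genes, most of these changes were of ordinary size. In crpaf1-1 these genes showed a median absolute log2 fold change of 0.19, beside 0.27 over all genes tested. In crskip-1 both medians were 0.23. Between the mutants it was 0.27, beside 0.25. A change of at least 2-fold at an adjusted p under 0.05 was made by 8.81% of all genes in crpaf1-1 and 6.89% in crskip-1 against wild type, and by 0 of the 9. Between the mutants 6.97% of genes differed by that much, and of the 9 STA7 did. STA7 lay close to the 2-fold cut both in crskip-1 against wild type (log2 -0.97, 95% interval -1.11 to -0.83) and between the mutants (1.01, interval 0.88 to 1.15). STA6 and STA2 in crpaf1-1 were larger in absolute log2 fold change than 83.4% and 81.4% of all genes, and STA7 in crskip-1 than 92.4%.

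The libraries of the groups did not overlap for 7 of the 9 genes in crpaf1-1 against wild type, where this held for 64.1% of all genes. They did not overlap for 6 of the 9 in crskip-1, where the share over all genes was 56.4%. Between the mutants the count was 6 of the 9, and the share over all genes was 59.3%.

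**Figure D5:**
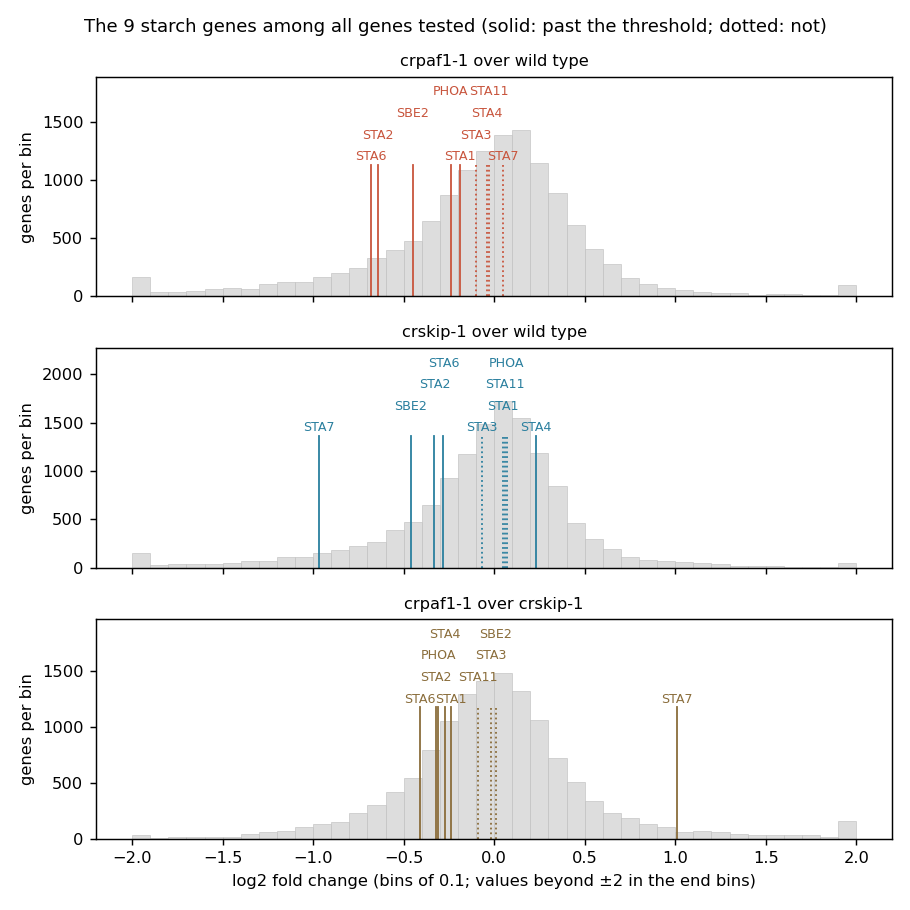
Histograms of log2 fold change over the 13376 genes tested (bins of 0.1; values beyond 2 in either direction are in the end bins), with a line for each of the 9 genes, solid where it passed the threshold and dotted where it did not. Most lines fall in the body of the distribution, with STA7 in the tails for crskip-1 (-0.97) and between the mutants (1.01).

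STA6 and STA2 had patterns close to each other. Likeness was measured as the root mean square difference between log2 CPM profiles over the 9 libraries, each taken relative to the gene's own wild-type mean, among the 9094 genes of at least 10 CPM on average. By this measure, STA2 ranked 2 among the 9093 other genes nearest to STA6, and STA6 ranked 3 among those nearest to STA2, at a difference of 0.0555. The gene outside the set nearest to STA6 was Cre02.g077401_4532.v6.1 (0.0551), with log2 fold changes of -0.62 in crpaf1-1 and -0.25 in crskip-1 (SE 0.06 each). The one nearest to STA2 was Cre02.g095055_4532.v6.1 (0.0457), with -0.61 and -0.38 (SE 0.07 each). No product is given for either gene in the tables at hand. Beyond this pair, the next closest place of 1 of the 9 genes in another's list was 32, that of STA1 in the list of PHOA. Those 2 genes differed by 0.0724, and PHOA ranked 147 in the list of STA1. A rank also depends on how many genes lie near the gene whose list it is.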

How the data were processed

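Each library has its own deposited table of raw, whole-number counts per gene, without normalization, and with each gene's exons and exonic length in bases. Bowtie2 and featureCounts were used per the submitters' processing notes; no source used here gives versions, strand use, or whether reads or fragments were counted. Per the file headers, counted alignments were uniquely mapped with duplicates removed, which lowers highly expressed genes most. Bowtie2 does not split reads across introns, so reads over exon junctions may be missing, most in genes with many short exons. Whether this loss is equal in the 3 groups was not tested. The labels' protocols describe oligo(dT) selection, although their molecule field reads genomic DNA; the values are treated as expression.

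Groups were compared with edgeR 4.0.16 in R 4.3.3 (quasi-likelihood F test, TMM, default filterByExpr, all 9 libraries in 1 fit without covariates), with Benjamini-Hochberg adjustment over 13376 genes and a threshold of 0.05. Each SE was taken as the size of the log2 fold change over the root of its F. CPM uses TMM-scaled library sizes, and ratios use counts per kb of deposited length. Exact permutation tests used SciPy 1.17.1. The fit was tested on simulated data. Replicates differed by more than counting noise (chi-square per degree of freedom 2.45 to 4.25). The alternatives were DESeq2 1.42.0, RLE scaling, library size alone, no filter, the compared groups alone, a replicate block, 1 lane, and leaving out each library. Columns of other samples numbered 0.

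The genes, ratios and tests were chosen with earlier results of these data known. The genes named are the 9 by ID, and for STA6 and STA2 the nearest gene outside the set. Of the 9 IDs, 9 matched a locus tag in RefSeq's Chlamydomonas_reinhardtii_v5.5 table and 0 had a symbol or product there, so planned lists of related genes by product or by protein similarity were not made, and no sequence is printed.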

Additional observations from a re-analysis of the deposited data

Results flagged for a closer look

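The mutants, tested directly against each other in edgeR's quasi-likelihood fit, differed in 6 of the 9 genes, where 53.8% of all genes tested differed. The log2 differences, crpaf1-1 minus crskip-1, were -0.41 for STA6, -0.24 for STA1, -0.32 for STA2, 1.01 for STA7, -0.27 for STA4 and -0.31 for PHOA. With library size alone the differences of STA1, STA4 and PHOA did not pass, while those of STA6 (-0.20), STA2 (-0.11) and STA7 (1.22) did.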

How the results depend on the processing

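Of 13 alternatives run for each gene and comparison, every call against wild type that passed kept its direction and passed in all 13. With library size alone, the genes lower in crpaf1-1 than in crskip-1 numbered 2 and those higher 4 (5 and 1 with TMM). Over all genes that setting called 61.7%, and 76.7% of the calls were higher, against 47.7% with TMM. That setting turned the sign, against wild type, of STA4 (0.05) and STA11 (0.06) in crpaf1-1 and of STA1 (-0.07), PHOA (-0.05) and STA11 (-0.06) in crskip-1, none of which passed in either setting. Between the mutants it turned STA3 (0.19, adjusted p = 0.002, edgeR) and STA11 (0.12), both then past the threshold. Leaving out 1 library in turn moved values near 0 across it. Against wild type, STA4 in crpaf1-1 ranged from -0.09 to 0.00747 (positive without crpaf1-1 replicate 1) and STA7 from -0.00791 to 0.07 (negative without crpaf1-1 replicate 3). Between the mutants STA3 ranged from -0.05 to 0.02 (positive without crpaf1-1 replicate 1, and at 0.00166 without crskip-1 replicate 2) and SBE2 from -0.00307 to 0.02 (negative without crskip-1 replicate 3). The cause was not tested. The 4 ratios kept their direction whichever library was left out. Same-numbered libraries deviated together (correlation over 0.1) in 4 of 9 pairs. These 4 include all 3 pairs of replicate 1, the lane 3 libraries (0.123 to 0.255), and the pair of replicate 3 between the mutants (0.128). Between libraries of different numbers the correlations ran from -0.178 to 0.135. The numbers were not used as pairing in the main fit. With a replicate block, 5, 5 and 6 of the 9 genes passed in crpaf1-1, in crskip-1 and between the mutants, as without it, and 8176, 7004 and 7579 of all genes. Paired by number, sign-flip tests of the ratios gave p = 0.25, the smallest 3 pairs allow (exact). STA7, with the fewest counts, had the largest SE of the 9 genes in each comparison.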
